A study of Mus musculus with 12 samples.

Results

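The histone lysine methyltransferases and demethylases are the enzymes that add methyl groups to, or remove them from, lysines of histones H3 and H4. Members were chosen by gene symbol on the mouse array: every gene with a symbol that starts with Kmt, Kdm, Setd or Nsd, plus Ezh1, Ezh2, Ehmt1, Ehmt2, Suv39h2 and Dot1l. The rule found 46 of the 18194 genes that had a probe set naming them alone, and 131 of the 45101 probe sets. Nsdhl, a sterol dehydrogenase that shares only the first letters of its symbol with the Nsd genes, was set aside (log2 change of -0.33 in CH against NX, not called). The other 45 genes, measured by 130 probe sets, comprised 27 methyltransferases or related SET domain proteins and 18 demethylases. Suv39h1 and Ash1l belong to the rule by name and were not analysed here, because no probe set of the annotation used named either of them alone.

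Whole blood of 3 groups of C57Bl/10 mice, 3 months old when obtained, was hybridized to Affymetrix Mouse 430 2.0 arrays, with blood of 1 mouse on each array and 4 arrays in each group. Mice of the chronic hypoxia (CH) group were kept for 14 days in a chamber where oxygen was lowered from 21% to 8%. Recovery (REC) mice had 14 days of the same hypoxia followed by 14 days at 21% oxygen, and normoxia (NX) mice stayed at 21% oxygen for 14 days. By these times REC blood was taken later than NX blood, and no normoxia group of the REC length was included. Recovery and age or time in the study therefore cannot be told apart in REC against NX. All mice were wild type, the blood was taken from the vena cava under ketamine and xylazine in all groups, and no sorting of cells is described. The labels of the CH arrays name the group in the title, and 1 other field of those arrays calls the same mice normoxic, so the titles were followed.

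Methylation of a histone lysine does not by itself switch a gene on or off. It is read by proteins that bind it, so the lysine and the number of methyl groups set the outcome: H3K4 methylation marks promoters and enhancers of active genes, H3K36 and H3K79 methylation mark transcribed gene bodies, and H3K9, H3K27 and H4K20 methylation are tied to silent or compacted chromatin. Most methyltransferases carry a SET domain and use S-adenosylmethionine as methyl donor. Most demethylases carry a Jumonji C (JmjC) domain that needs oxygen, iron and 2-oxoglutarate, and a smaller flavin-dependent class also consumes oxygen. In blood, mature mouse erythrocytes have no nucleus, reticulocytes keep RNA for a short time after losing theirs, and leukocytes are nucleated.

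The promoters of the members that carried the results are shown first, because they are the sequences in which a regulator that responds to oxygen or to erythroid differentiation would be looked for. Each is 300 bases around an annotated start (RefSeq, GRCm38.p6), written along the gene's strand. The shown ones belong to the 3 members that were higher in CH (Kdm7a at chr6:39206724-39207023 on the minus strand, Kmt5a at chr5:124445249-124445548 on the plus strand, Setd3 at chr12:108179192-108179491 on the minus strand), to 2 that were lower in both CH and REC (Kmt2a at chr9:44881240-44881539 and Kmt2c at chr5:25498734-25499033, both on the minus strand), and to Kdm3a, a demethylase known as a target of hypoxia-inducible factor (chr6:71632868-71633167, minus strand). Capitals mark ACGTG or GCGTG, the core letters of the hypoxia response element, and would mark TGATAA or AGATAA, letters bound by GATA factors, each on either strand. Kmt5a and Kdm3a have 3 annotated starts each and Setd3 has 2, of which 1 is shown; for Kmt5a and Kdm3a it is the only start with either hypoxia motif (0 matches at the other two), and both starts of Setd3 held GCGTG once.
Kdm7a promoter: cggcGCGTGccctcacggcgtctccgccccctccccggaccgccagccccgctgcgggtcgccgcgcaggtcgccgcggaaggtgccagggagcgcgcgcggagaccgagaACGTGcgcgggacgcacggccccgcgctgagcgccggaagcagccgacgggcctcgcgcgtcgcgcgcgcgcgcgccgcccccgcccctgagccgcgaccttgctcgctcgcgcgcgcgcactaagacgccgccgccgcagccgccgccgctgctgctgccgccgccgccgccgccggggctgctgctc
Kmt5a promoter: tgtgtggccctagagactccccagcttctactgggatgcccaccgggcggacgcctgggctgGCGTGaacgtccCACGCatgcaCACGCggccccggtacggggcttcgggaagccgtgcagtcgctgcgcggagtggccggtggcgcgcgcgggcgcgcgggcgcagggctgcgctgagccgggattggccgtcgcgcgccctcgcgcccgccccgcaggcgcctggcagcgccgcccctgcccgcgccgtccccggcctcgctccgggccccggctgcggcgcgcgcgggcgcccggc
Setd3 promoter: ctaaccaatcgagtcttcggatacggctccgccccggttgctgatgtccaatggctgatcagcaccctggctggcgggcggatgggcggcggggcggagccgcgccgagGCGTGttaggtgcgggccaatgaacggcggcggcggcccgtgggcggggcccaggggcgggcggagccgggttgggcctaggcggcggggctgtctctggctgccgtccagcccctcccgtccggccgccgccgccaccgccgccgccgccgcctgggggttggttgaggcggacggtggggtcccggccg
Kmt2a promoter: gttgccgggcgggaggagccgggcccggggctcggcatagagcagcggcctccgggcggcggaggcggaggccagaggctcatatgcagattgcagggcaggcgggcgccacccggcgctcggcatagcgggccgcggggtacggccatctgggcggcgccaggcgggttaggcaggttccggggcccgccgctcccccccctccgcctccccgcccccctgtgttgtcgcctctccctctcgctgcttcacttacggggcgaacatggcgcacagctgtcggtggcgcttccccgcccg
Kmt2c promoter: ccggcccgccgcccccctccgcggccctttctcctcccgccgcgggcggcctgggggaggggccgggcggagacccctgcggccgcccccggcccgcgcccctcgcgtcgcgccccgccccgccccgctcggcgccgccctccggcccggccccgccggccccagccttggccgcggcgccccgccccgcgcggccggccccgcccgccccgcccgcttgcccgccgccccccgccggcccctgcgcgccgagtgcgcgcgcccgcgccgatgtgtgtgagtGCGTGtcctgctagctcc
Kdm3a promoter: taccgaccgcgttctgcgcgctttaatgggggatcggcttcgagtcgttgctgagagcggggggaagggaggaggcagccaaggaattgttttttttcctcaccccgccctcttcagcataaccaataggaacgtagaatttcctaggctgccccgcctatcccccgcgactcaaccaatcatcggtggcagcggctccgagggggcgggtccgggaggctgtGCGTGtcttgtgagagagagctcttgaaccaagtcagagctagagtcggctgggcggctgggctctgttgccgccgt
ACGTG stood once in the Kdm7a promoter and GCGTG once in those of Kdm7a, Setd3, Kmt2c and Kdm3a and 3 times in that of Kmt5a, and the Kmt2a promoter held neither. No GATA letters were in any of the 6 windows. Of the 45 members, 34 matched the promoter table, with 45 starts among them. GCGTG was in 64.4% of these 45 promoters and in 32.4% of all 32851 promoters of the same length, and ACGTG was in 22.2% and 19.6%. The members' promoters held a median of 28 CG pairs, against 7 in all promoters, and both hypoxia motifs contain a CG pair. A GATA match was in 11.1% of member promoters and in 18.6% of all. These are matches of letters in a short window and say nothing of binding.

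The arrays differed by group in ways that touch every member. Summed signals of 9 reticulocyte and erythroid markers were 108986 to 173104 in CH, 5426 to 16025 in REC and 22017 to 33415 in NX, and 9 of 9 were called higher in CH and 5 lower in REC, each against NX. Summed B cell markers (7 genes, 6 called lower in CH) were 2690 to 13140 in CH, 22703 to 25543 in REC and 19889 to 24521 in NX, and summed T cell markers (7 genes, 6 called lower in CH) were 1589 to 6007 in CH, 10237 to 10744 in REC and 6368 to 8506 in NX. Summed NK cell markers (7 genes) were 1448 to 2727 in CH, 8566 to 13663 in REC and 3127 to 5161 in NX, with 3 called lower and 1 higher in CH and 3 called higher in REC. No marker of these lists was at 0 on any array. The neutrophil, monocyte and platelet sums overlapped between all groups, and in these 3 lists the only call against NX was Csf1r, lower in CH. Ptprc, which encodes the leukocyte antigen CD45, had signals of 928, 834, 2807 and 1114 in CH, 2887 to 3050 in REC and 3510 to 4312 in NX (log2 change of -1.62 in CH, adjusted p = 0.00166, and of -0.38 in REC, adjusted p = 0.612). CH replicate 3 had the highest Ptprc signal of its group, and 18 bacterial control probe sets, added at hybridization, averaged 14.0 to 14.6 on the log2 scale in CH, 11.6 to 12.2 in REC and 12.3 to 13.1 in NX. The ratio of 3′ to 5′ actin signal, a sign of RNA integrity, was 1.91 to 2.11 in CH, 1.54 to 1.73 in REC and 1.61 to 1.86 in NX. In whole blood, fewer cells of a type and less RNA per cell cannot be told apart, and the part of blood composition in the members' changes was not tested beyond the values given here.

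Against NX, 21 of the 45 members were called lower in CH and 6 in REC. Changes are log2 differences of signal + 16 of each gene's brightest probe set, tested with limma on all 12 arrays, and a gene was called where the adjusted p was below 0.05 and the change at least 2-fold. In CH the 21 lower members stood beside 3 called higher, where 19.5% and 9.08% of all genes were called (28.6% in either direction). In REC the 6 lower members stood beside 0 higher, where 1.79% and 2.5% of all genes were called by limma (4.29% in either direction). At an unadjusted p under 0.05, 1 member was higher in REC (Ehmt2) and 17 were lower, where 11% and 7.04% of all genes were. The members' median log2 change was -0.79 in CH and -0.41 in REC, beside 0.05 and -0.02 over all genes. Scaled on the hybridization controls, which moved the median of all genes to -1.56 in CH and 0.79 in REC, 39 members were lower and 0 higher in CH (75.9% and 1.45% of all genes), and 1 was lower and 3 higher in REC (0.434% and 21.8% of all genes). Under quantile normalization 14 members were lower and 3 higher in CH (16.1% and 8.05% of all genes). In REC 7 were lower and 0 higher (1.89% and 2.56%). The lower calls in CH of Kdm1a, Kdm3a, Kmt2b, Kmt5b, Setd1a, Setd2 and Setd5 were lost under it. With the probe sets of each gene averaged, 11 members were lower and 2 higher in CH (12.1% and 7.17% of all genes), and 5 were lower and 0 higher in REC (1.52% and 2.07%). No filter on low signals was used, so all 45 members were tested. The family was proposed with results of these arrays known, so these counts describe it and are not read against the shares of all genes.

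Of the 24 members called in CH, 17 were lower in CH only, 4 were lower in both CH and REC (Kmt2a, Kmt2c, Kmt2d and Setd1b, a class of 0.379% of all genes), 2 were higher in CH only (Kmt5a and Setd3), and 1, Kdm7a, was raised in CH but reduced in REC (a class of 1.14%). None was lower in CH with an increase in REC (0.594% of all genes) or higher in both (0.275%). Kdm5a was called in REC alone, and 20 members were called in neither. CH and REC were set against the same NX arrays, so these classes share their controls. The spread between mice was larger in CH: the members' median SD on the log2 scale was 0.52 in CH, 0.26 in REC and 0.26 in NX, beside 0.58, 0.28 and 0.32 over all genes. Kdm6b varied most in CH (SD 1.36).

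**Figure D1:**
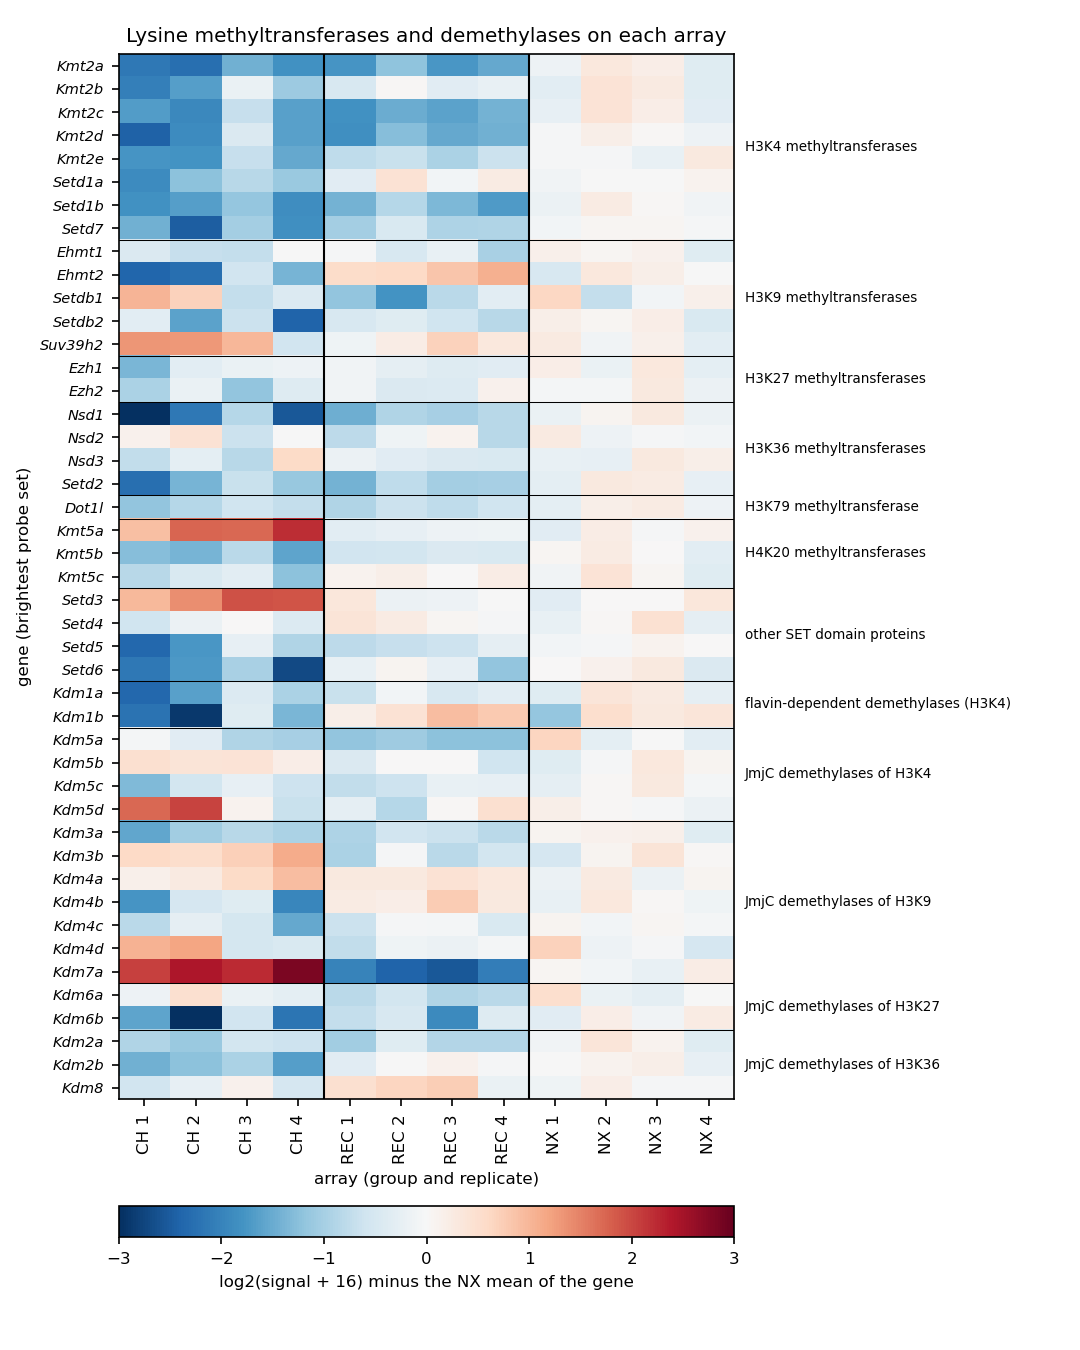
Each row is 1 of the 45 members and each column 1 array, ordered CH, REC, NX; the colour is log2(signal + 16) minus that gene's NX mean, red above and blue below. Rows are grouped by the lysine acted on: the H3K4 methyltransferase block is blue in CH, Kmt2a, Kmt2c, Kmt2d and Setd1b are also blue in REC, and Kdm7a is red in CH and blue in REC.

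All 8 H3K4 methyltransferases measured were called lower in CH (19.5% of all genes), and 4 of them were called lower in REC (1.79%). Their median log2 change was -1.54 in CH and -1.08 in REC. The 8 stayed lower in CH under median centring (23.4% of all genes lower) and with a pseudocount of 1 (19.5%). They also did under scaling on the hybridization controls, where 75.9% of all genes were lower. Under quantile normalization 6 did (16.1%). When the probe sets of each gene were averaged, 3 stayed called in CH (Kmt2a, Kmt2b and Setd1b), where 12.1% of all genes were called lower. The call was lost for Kmt2c (-0.62), Kmt2d (-0.33), Kmt2e (-0.89), Setd1a (-0.55) and Setd7 (-0.57). The 4 calls in REC held (1.52% of all genes). In REC, 5 were called under quantile normalization (1.89% of all genes lower) and 3 under median centring (1.1%) or a pseudocount of 1 (1.06%). Under control scaling 0 were (0.434%). The group holds the catalytic subunits of the COMPASS-type complexes (Kmt2a to Kmt2d, Setd1a and Setd1b) and Setd7, which adds a single methyl group and also acts on other proteins. Kmt2e was counted with them by family name, although it is thought to be a reader with little activity of its own.

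Kmt2a, also called Mll1, is needed for Hox gene expression and blood stem cells. It had signals of 289, 263, 479 and 365 in CH, 377, 567, 384 and 447 in REC, and 1192, 1671, 1531 and 1022 in NX. All arrays of CH and of REC lay below all 4 of NX, while CH and REC overlapped. The change was -1.92 in CH (SE 0.26, adjusted p = 0.000114, 3.78-fold lower) and -1.57 in REC (SE 0.26, adjusted p = 0.00392, 2.96-fold lower), and the difference of CH from REC was -0.35 (adjusted p = 0.307). Both of its probe sets were called in both comparisons, the second at -2.10 and -1.98.

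Kmt2c and Kmt2d methylate H3K4 at enhancers. Kmt2c read 407, 337, 824 and 419 in CH, 366, 468, 430 and 488 in REC, and 1121, 1772, 1532 and 1054 in NX, so that every NX array was above every other. Its change was -1.49 in CH (SE 0.29, adjusted p = 0.00148) and -1.59 in REC (SE 0.29, adjusted p = 0.00668). Kmt2d read 582, 858, 2385 and 1021 in CH, 879, 1314, 1097 and 1164 in REC, and 3101, 3604, 3287 and 2866 in NX. Here too the NX arrays stood alone, and the high CH value belonged to replicate 3. Its change was -1.59 in CH (SE 0.34, adjusted p = 0.00303) and -1.53 in REC (SE 0.34, adjusted p = 0.0204). The REC call of Kmt2d was lost without REC replicate 1 or 3 or without NX replicate 1, 2 or 3, with adjusted p up to 0.0672.

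Setd1b, catalytic in a complex that methylates H3K4 at promoters, read 118, 135, 194 and 113 in CH, 162, 243, 169 and 131 in REC, and 404, 548, 466 and 421 in NX. CH and REC overlapped, and all 8 of their arrays were below NX. The change was -1.63 in CH (SE 0.25, adjusted p = 0.000285) and -1.33 in REC (SE 0.25, adjusted p = 0.00792). Its close relative Setd1a read 78.6, 134, 179 and 146 in CH, 261, 457, 312 and 398 in REC, and 311, 332, 333 and 360 in NX. Its REC arrays lay on both sides of the NX arrays and its CH arrays below both. Setd1a was lower in CH than in NX (-1.26, SE 0.26, adjusted p = 0.00239) and than in REC (-1.33, SE 0.26, adjusted p = 0.00126), and its change in REC was 0.06 (adjusted p = 0.946).

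Setd7 read 105, 43.1, 148 and 76.4 in CH, 147, 226, 157 and 160 in REC, and 293, 327, 328 and 307 in NX. The REC arrays lay between, with 1 CH array inside their range. The change was -1.69 in CH (SE 0.29, adjusted p = 0.000608) and -0.82 in REC (adjusted p = 0.13). Kmt2b and Kmt2e were called lower in CH only, at -1.24 (adjusted p = 0.0158) and -1.44 (adjusted p = 0.00106). In REC their changes were -0.25 (adjusted p = 0.79) and -0.75 (adjusted p = 0.133). For Kmt2e all 4 REC arrays (1322 to 1644) were below all NX arrays (2183 to 3155) and 1 of its 6 probe sets was called at -1.10. The Kmt2b call was lost without CH replicate 1, NX replicate 2 or NX replicate 3.

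**Figure D2:**
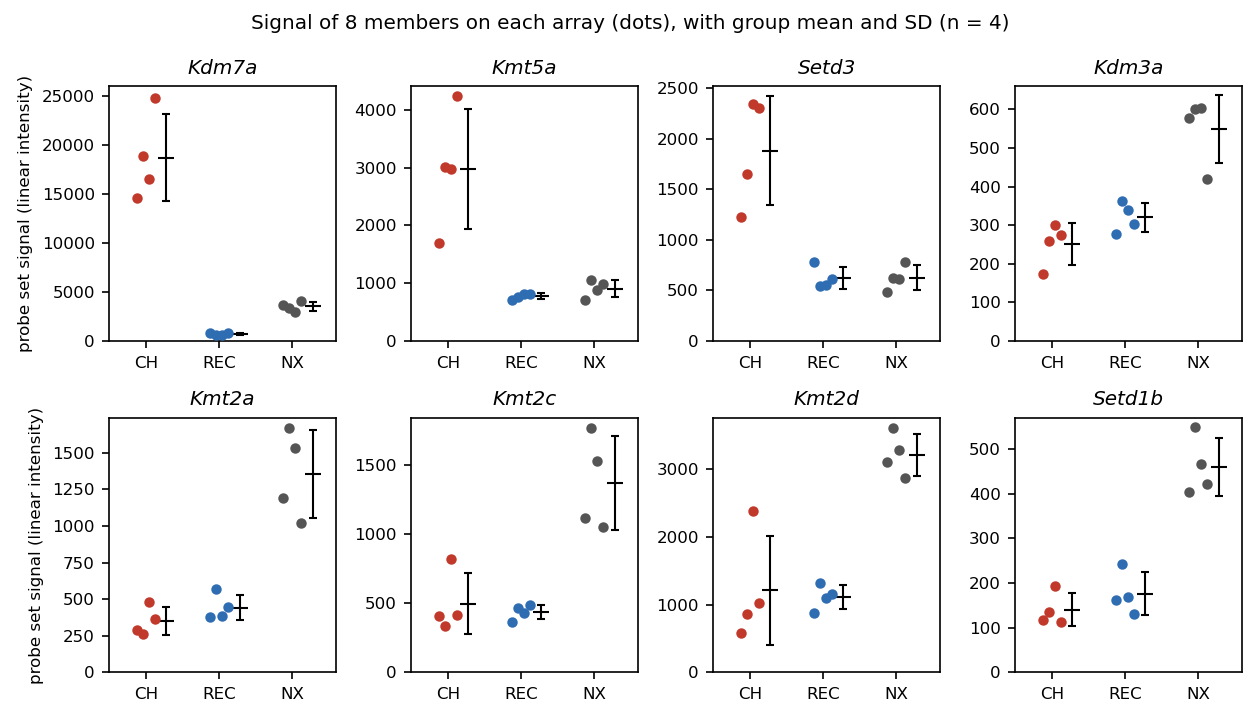
Dots are the linear probe set signals of 8 members on single arrays, bars the group mean and SD (n = 4), with CH, REC and NX from left to right and the vertical axis starting at 0. Kdm7a averaged 18683 in CH, 725 in REC and 3515 in NX; the lower row shows the 4 H3K4 methyltransferases whose CH and REC arrays all lay below NX.

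By the brightest probe set, Kdm7a carried the largest change of the family in each comparison. Its product, known in mammals as KDM7A or JHDM1D, is a JmjC demethylase that binds methylated H3K4 and removes methyl groups from H3K9 and H3K27. It read 14552, 18892, 16522 and 24767 in CH, 854, 647, 587 and 810 in REC, and 3659, 3304, 2992 and 4105 in NX. The 3 groups were fully apart, with CH above NX and REC below it. The change was 2.39 in CH (SE 0.24, adjusted p = 1.04e-05, 5.23-fold), -2.26 in REC (SE 0.24, adjusted p = 0.000443, 4.79-fold lower), and 4.65 between CH and REC (SE 0.24, adjusted p = 1.6e-08, 25.0-fold). The summed erythroid markers moved in the same order over the groups. In REC and NX the largest part of that sum was Alas2 (3712 to 11764 in REC). The markers did not move alike. Slc4a1 was at 527 to 2771 in REC and 6138 to 8992 in NX, and Gata1 at 389 to 759 in REC and 341 to 562 in NX. Per 100 units of that sum, Kdm7a was at 13.4 to 14.4 in CH, 5.33 to 11.9 in REC and 12.3 to 14.4 in NX. This ratio, chosen after the values were seen, overlapped between CH and NX and was lower in all 4 REC arrays than in any NX array. The REC call held under every scaling tried (-2.79 with quantile normalization, -1.45 with control scaling), while the CH call against NX was lost under quantile normalization (0.83, adjusted p = 0.011, under 2-fold) and control scaling (0.77, adjusted p = 0.0361). Its next 2 probe sets stayed called in CH under both, at 2.34 and 2.55 with quantile normalization and at 1.34 and 1.70 with control scaling.

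Kmt5a and Setd3 were the other members called higher in CH. Kmt5a places the single methyl group on H4K20 and is needed for chromosome condensation and, in the mouse, for the maturation of erythroblasts. It read 1693, 3017, 2974 and 4236 in CH, 716, 752, 806 and 820 in REC, and 706, 1053, 879 and 983 in NX. CH stood above both other groups, which overlapped. The change was 1.64 in CH (SE 0.27, adjusted p = 0.000487) and -0.21 in REC (adjusted p = 0.771). Setd3 methylates a histidine of actin, although it was first described as an H3 methyltransferase. It read 1227, 1652, 2349 and 2308 in CH, 785, 546, 549 and 612 in REC, and 480, 621, 618 and 783 in NX, with REC and NX mixed. The change was 1.54 in CH (SE 0.27, adjusted p = 0.000648) and 0.00 in REC. Per 100 units of the erythroid sum, Kmt5a was at 1.55 to 2.59 in CH, 4.47 to 13.9 in REC and 2.41 to 4.58 in NX, and Setd3 at 1.13 to 2.04 in CH, 4.90 to 10.1 in REC and 1.64 to 2.80 in NX. Neither call in CH held under control scaling (0.03 for Kmt5a and -0.07 for Setd3), where the median of all genes was -1.56.

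The other H4K20 enzymes, Kmt5b and Kmt5c, add the second and the third methyl group. Kmt5b was called lower in CH (-1.27, SE 0.23, adjusted p = 0.000971) and was at -0.51 in REC (adjusted p = 0.266). Kmt5c was at -0.71 in CH (adjusted p = 0.0508). Among the other SET domain proteins, Setd6, which methylates the NF-kappaB subunit RelA, read 54.2, 78.8, 142 and 31.6 in CH, 252, 317, 248 and 123 in REC, and 301, 324, 367 and 215 in NX. All CH arrays were below all NX arrays. Setd6 was lower in CH than in NX (-1.89, SE 0.36, adjusted p = 0.00138) and than in REC (-1.51, SE 0.36, adjusted p = 0.00502). By the brightest probe set, Setd5 was called lower in CH (-1.31, adjusted p = 0.0138) and Setd4 was not (-0.29). The 3 probe sets of Setd4 were similar in mean signal (66.6 to 72.9). Their changes in CH were -1.12 to -0.29, and 1 was called lower.

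The H3K9 methyltransferases did not move as a block. Ehmt2, known as G9a, adds up to 2 methyl groups to H3K9 in euchromatin. It read 27.6, 31.1, 135 and 69.1 in CH, 316, 325, 386 and 453 in REC, and 145, 264, 238 and 208 in NX. The groups were fully apart, with REC highest and CH lowest. The change was -1.65 in CH (SE 0.36, adjusted p = 0.003), 0.76 in REC (adjusted p = 0.279), and -2.41 between CH and REC (SE 0.36, adjusted p = 0.000118, 5.33-fold lower), which was the largest decrease among members in that comparison. Ehmt1, its partner in the same complex, was at -0.46 in CH and -0.42 in REC and was called in neither. Setdb2 was called lower in CH (-1.24, adjusted p = 0.0228), a call lost without CH replicate 2 or 4 or NX replicate 2 or 3. Setdb1, which silences endogenous retroviruses, was at 0.15 in CH and -1.02 in REC (adjusted p = 0.216), and Suv39h2 at 0.76 and 0.28. Of the 3 probe sets of Setdb1, a dimmer one was called lower in CH (-1.30).

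Neither H3K27 methyltransferase was called by its brightest probe set. Ezh2, the catalytic subunit of Polycomb repressive complex 2 in dividing cells, read 73.3, 132, 59.5 and 114 in CH, 143, 110, 112 and 172 in REC, and 148, 150, 194 and 135 in NX. Its change was -0.68 in CH (SE 0.26, adjusted p = 0.0683) and -0.21 in REC (adjusted p = 0.761). Ezh1, its counterpart in resting cells, read 65.2, 153, 168 and 173 in CH, 179, 159, 144 and 151 in REC, and 224, 167, 243 and 154 in NX. The 3 groups overlapped for Ezh1, with changes of -0.51 in CH (adjusted p = 0.209) and -0.27 in REC (adjusted p = 0.702). Of the 4 probe sets of Ezh1, 1 dimmer one was called lower in CH than in NX (-1.39) and than in REC (-1.44, adjusted p = 0.00178), and the other two dimmer ones were not called. For Ezh2, measured by 1 probe set, every CH array was below every NX array.

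Of the 4 H3K36 methyltransferases, Nsd1 and Setd2 were called lower in CH. Nsd1, which adds up to 2 methyl groups to H3K36, read 72.4, 143, 369 and 105 in CH, 236, 358, 333 and 378 in REC, and 591, 724, 846 and 600 in NX. The CH value of replicate 3 was inside the REC range, and both groups lay below NX. Its change of -2.13 in CH (SE 0.37, adjusted p = 0.000693, 4.37-fold lower) was the largest decrease of a member in CH against NX, and REC was at -1.05 (adjusted p = 0.131). Of its 4 probe sets only this one was called in CH, 2 had positive changes, and their mean was at -0.44 (adjusted p = 0.227, not called). Setd2, the only mammalian enzyme that adds the third methyl group to H3K36 during transcription, was at -1.36 in CH (SE 0.32, adjusted p = 0.00482) and -1.05 in REC (adjusted p = 0.0738). The CH call of Setd2 was lost under quantile normalization (-1.12, adjusted p = 0.0559). Nsd2 and Nsd3 were at -0.03 and -0.32 in CH. Dot1l, the H3K79 methyltransferase, passed the adjusted p in CH at less than 2-fold by its brightest probe set (-0.84, adjusted p = 0.0125). The dimmer of its 2 probe sets was called lower in CH (-1.06).

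Both flavin-dependent demethylases, which act on H3K4, were called lower in CH and not in REC. Kdm1a, known as LSD1, was at -1.33 in CH (SE 0.36, adjusted p = 0.0121) and -0.39 in REC. Kdm1b read 12.8, 1.78, 87.8 and 35.4 in CH, 133, 162, 234 and 213 in REC, and 43.3, 171, 146 and 156 in NX. All CH arrays were below all REC arrays, and 1 NX array lay among those of CH. Its change was -1.71 in CH (SE 0.49, adjusted p = 0.0162) and -2.28 between CH and REC (SE 0.49, adjusted p = 0.0021). The CH call against NX was lost for Kdm1a without CH replicate 1 and under quantile normalization (-1.10, adjusted p = 0.0688). For Kdm1b it was lost without CH replicate 2 or NX replicate 2.

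Of the 16 JmjC demethylases, 4 were called lower and 1 higher in CH (19.5% and 9.08% of all genes), and 2 were called lower in REC (1.79%). Kdm3a removes methyl groups from H3K9 and is known from human and mouse cells as a gene that hypoxia-inducible factor turns on. It read 174, 258, 301 and 274 in CH, 278, 363, 340 and 303 in REC, and 577, 600.3, 603 and 419.8 in NX. Every NX array was above every CH and REC array. The change was -1.09 in CH (SE 0.24, adjusted p = 0.00307) and -0.74 in REC (adjusted p = 0.0926). Without CH replicate 1 the CH change was -0.93, below 2-fold. Under quantile normalization it was -0.76 (adjusted p = 0.0472), also below 2-fold. Kdm3b read 355, 341, 391 and 518 in CH, 112, 225, 125 and 153 in REC, and 159, 245, 304 and 236 in NX. It was higher in CH than in REC (1.33, SE 0.27, adjusted p = 0.00157), and its CH arrays were all above NX without a call (0.74, adjusted p = 0.054).

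The Kdm4 enzymes act on H3K9, and some of them also act on H3K36. Kdm4b, which is also known as a hypoxia-inducible gene in human cells, read 11.3, 49.5, 56.6 and 7.77 in CH, 93.2, 90.0, 141 and 96.7 in REC, and 63.0, 99.4, 78.9 and 69.0 in NX. All CH arrays were below the arrays of both other groups. The change was -1.14 in CH (SE 0.35, adjusted p = 0.0232) and -1.51 between CH and REC (SE 0.35, adjusted p = 0.00365). The call against NX was lost when CH replicate 1, CH replicate 4, NX replicate 2 or NX replicate 3 was left out. By their brightest probe sets Kdm4a, Kdm4c and Kdm4d were at 0.48, -0.79 and 0.31 in CH, and none was called in CH or in REC. A dim probe set of Kdm4a (mean signal 17.3) was called higher in CH than in NX (1.15) and than in REC (1.05).

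Kdm6b, which removes methyl groups from H3K27 and is induced in activated macrophages, read 574, 108, 1164 and 368 in CH, 1058, 1252, 454 and 1325 in REC, and 1389, 2000, 1622 and 2076 in NX. Its CH arrays spread widely and all lay below NX, as did its REC arrays. The change was -2.05 in CH (SE 0.54, adjusted p = 0.0101), -1.45 without CH replicate 2 and -2.54 without CH replicate 3, and -0.87 in REC (adjusted p = 0.446). Its probe set is of a kind that can bind more than 1 transcript, its 2 other probe sets had positive changes in CH, and the mean of the 3 was at -0.40 (adjusted p = 0.374, not called). Its X-linked relative Kdm6a was at -0.04 in CH and -0.76 in REC (adjusted p = 0.11).

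By their brightest probe sets, the JmjC demethylases of H3K4 were not called in CH. Of the 6 probe sets of Kdm5a, with changes from -1.39 to 0.74, 1 was called lower in CH. Of the 9 of Kdm5c, 2 were called higher. Kdm5a, a partner of the retinoblastoma protein, read 327, 265, 177 and 163 in CH, 142, 154, 136.5 and 136.5 in REC, and 541, 274, 340 and 270 in NX. REC was the lowest group on every array and CH overlapped NX. The change was -1.18 in REC (SE 0.28, adjusted p = 0.0258) and -0.58 in CH (adjusted p = 0.144). The REC call was lost when any 1 REC array, NX replicate 1 or NX replicate 3 was left out, with adjusted p up to 0.087. The Y-linked Kdm5d read 482, 604, 148 and 79.9 in CH, 111, 67.4, 138 and 195 in REC, and 156, 139, 133 and 118 in NX, with 2 CH arrays far above the rest and no call (0.80, adjusted p = 0.255). Kdm5b was at 0.37 and the X-linked Kdm5c at -0.69 in CH. Of the H3K36 demethylases, Kdm2b, which recruits a Polycomb complex to unmethylated CG islands, read 295, 348, 424 and 255 in CH, 651, 828, 915 and 808 in REC, and 820, 892, 936 and 699 in NX. It was lower in CH than in NX (-1.32, SE 0.23, adjusted p = 0.000724) and than in REC (-1.25, SE 0.23, adjusted p = 0.000706), with REC and NX mixed. Kdm2a was at -0.79 in both CH (adjusted p = 0.0273) and REC (adjusted p = 0.0905), under 2-fold. Kdm8, counted here as a demethylase by its name, was at -0.30 in CH and 0.42 in REC.

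**Figure D3:**
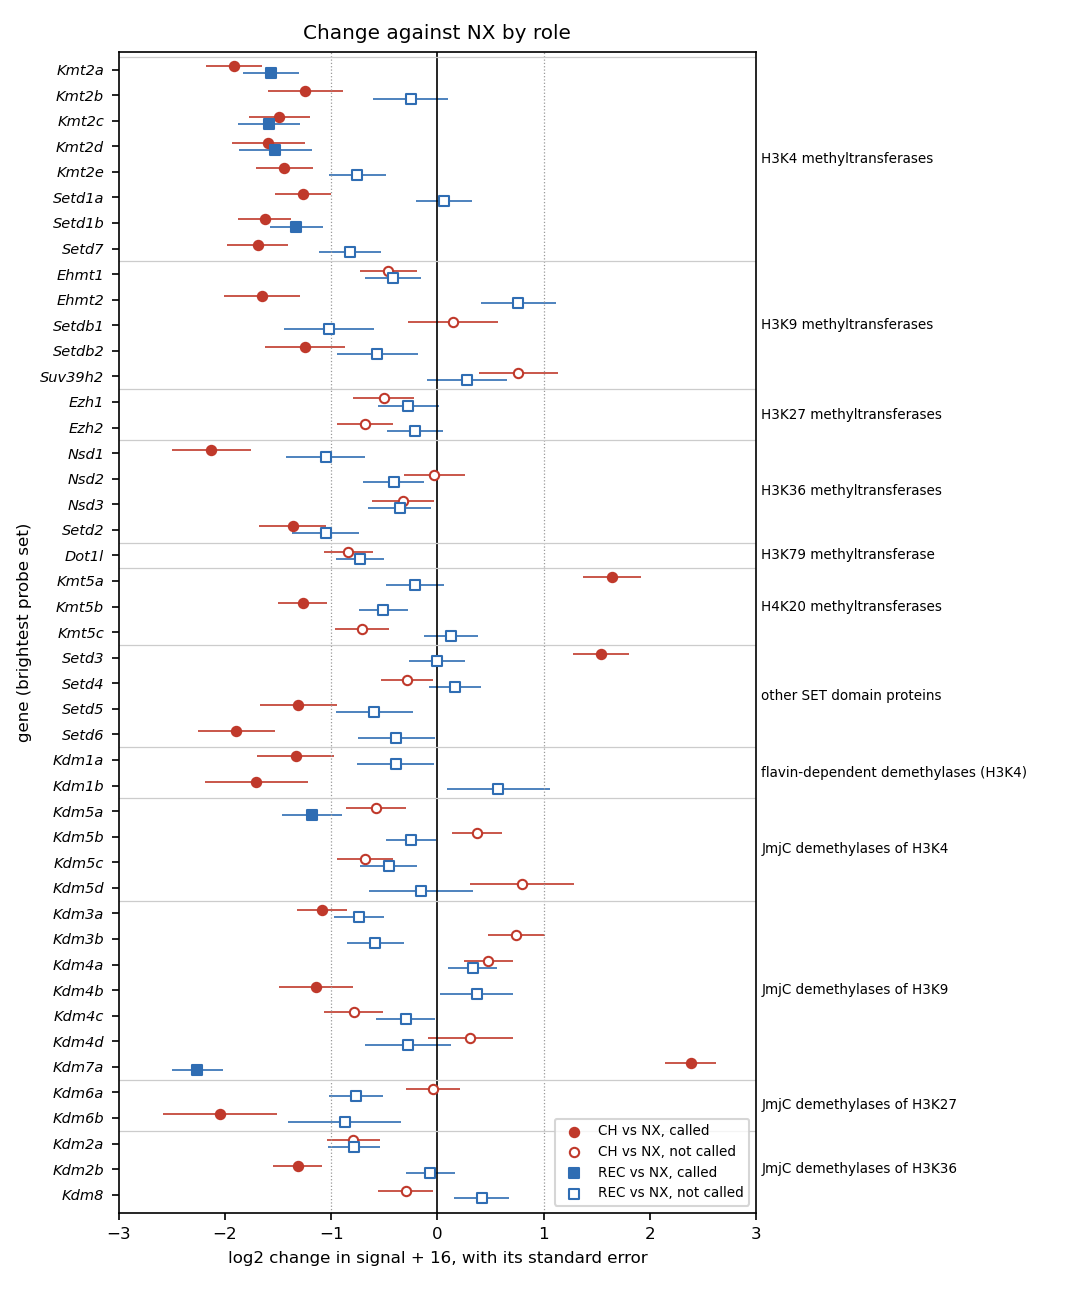
Points are log2 changes of signal + 16 against NX with their standard errors, red circles for CH and blue squares for REC, filled where called; dotted lines mark 2-fold. All 8 H3K4 methyltransferases have filled circles to the left, and Kdm7a has its circle at 2.39 and its square at -2.26.

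Set directly against REC, CH had 5 members called higher (Kdm7a, Kmt5a, Setd3, Kdm3b and Setdb1) and 7 lower (Ehmt2, Kdm1b, Kdm4b, Setd6, Setd1a, Kdm2b and Nsd1), where 12.3% and 23.3% of all genes were called (35.6% in either direction). All 4 CH arrays lay above all REC arrays for 7 members (15.3% of all genes) and below them for 7 (24.8%). Setdb1 (1.17, adjusted p = 0.0448) and Nsd1 (-1.08, adjusted p = 0.0347) lost the call when single arrays were left out, and without CH replicate 3 the lower count was 12. A dimmer probe set of Setdb1 was called lower in CH than in REC (-1.09). Of the 4 members that were lower than NX in both groups, none was called between CH and REC, with differences of -0.35 for Kmt2a, 0.10 for Kmt2c, -0.07 for Kmt2d and -0.30 for Setd1b.

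Because the leukocyte antigen was itself lower in CH, the signals were also read per 100 units of Ptprc on the same array, a ratio chosen after the values were seen and given as a description. Kmt2a was at 17.1 to 32.8 in CH, 12.6 to 19.6 in REC and 23.7 to 47.6 in NX. Kmt2c was at 29.4 to 43.9 in CH, 12.4 to 16.2 in REC and 24.5 to 50.5 in NX. Kmt2d was at 62.8 to 103 in CH, 29.8 to 45.5 in REC and 66.5 to 103 in NX. For all 3 the CH and NX ranges overlapped and every REC array was below every NX array. Setd1b was at 6.91 to 16.1 in CH, 4.31 to 8.43 in REC and 9.77 to 15.6 in NX. Nsd1 was at 7.81 to 17.2 in CH, 8.01 to 12.5 in REC and 13.9 to 20.9 in NX. Over the family, 0 of 45 members had all 4 CH arrays below all NX arrays on this ratio (0.61% of all genes), and 7 had all 4 REC arrays below NX (2.25% of all genes): Kdm5a, Kdm7a, Kmt2a, Kmt2c, Kmt2d, Nsd1 and Setd1b. The CH arrays were all above NX on the ratio for 11 members (42.6% of all genes) and the REC arrays for 3 (28%: Ehmt2, Kdm4a and Kdm4b). Between CH and REC, 15 members were above (35.3%) and Ehmt2 and Kdm1b below (5.4%). Without the ratio, 22 members had all CH arrays below NX (21.4% of all genes) and 4 above (11%), and 16 had all REC arrays below NX (8.88%) and 2 above (12.6%).

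**Figure D4:**
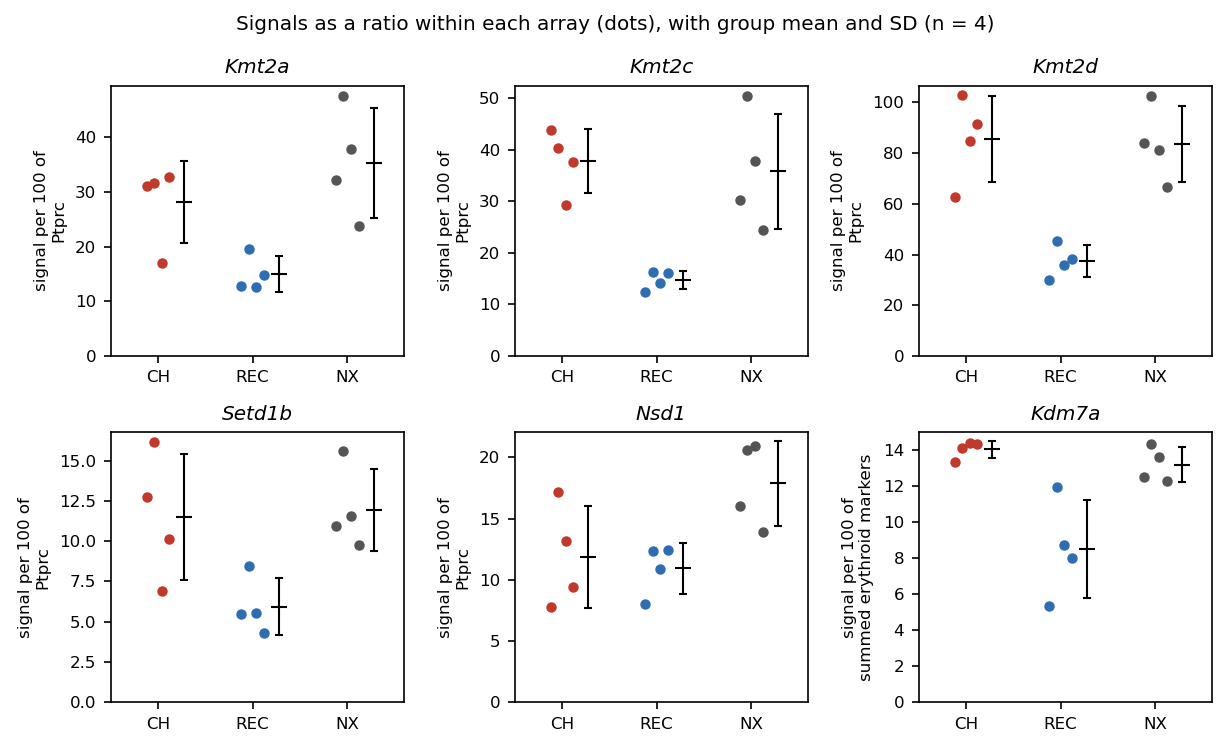
Dots are ratios within single arrays, bars the group mean and SD (n = 4), with CH, REC and NX from left to right. The vertical axis is the member's signal per 100 of Ptprc, or for Kdm7a per 100 of the summed erythroid markers; CH overlaps NX in all 6 panels, and REC lies below NX without overlap.

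Most members were measured by more than 1 probe set, and these did not always move alike. Of 130 probe sets, 12 were called higher and 36 lower in CH (8.04% and 13.9% of all probe sets), and 0 and 15 in REC (1.62% and 2.74%). The 3 bright probe sets of Kdm7a were called in both comparisons (2.39, 2.96 and 3.31 in CH, -2.26, -2.61 and -2.51 in REC), and its 2 dim ones were not. Kmt5a had 3 of 4 called higher in CH (1.64, 1.47 and 1.25), and Setd1b had both called lower in both groups. Kmt2c had 2 of 4 called in each comparison, and the dim second probe set of Kmt2d was at 0.92 in CH, uncalled. Setd3, Setd5 and Nsd3 had probe sets called in opposite directions in CH. For Setd3 these were at 1.54 and -1.22, and for Setd5 at -1.31 and 2.62. Kdm5c was at -0.69 by its brightest probe set, while its other 8 were positive, 2 of them called. In REC no member had probe sets called in opposite directions, and between CH and REC only Setdb1 did (1.17 and -1.09). Averaging the probe sets of each gene also ended the CH calls against NX of Ehmt2 (-0.69), Kmt5b (-0.50) and Setd3 (0.16) and the REC call of Kdm5a (-0.81), and put Setd5 at 0.34 in CH. Between CH and REC it ended those of Kdm3b (0.82), Setd1a (-0.27), Setd3 (0.64), Setd6 (-0.65) and Setdb1 (0.19), put Nsd1 at 0.31, and added Kdm5c (1.17).

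**Figure D5:**
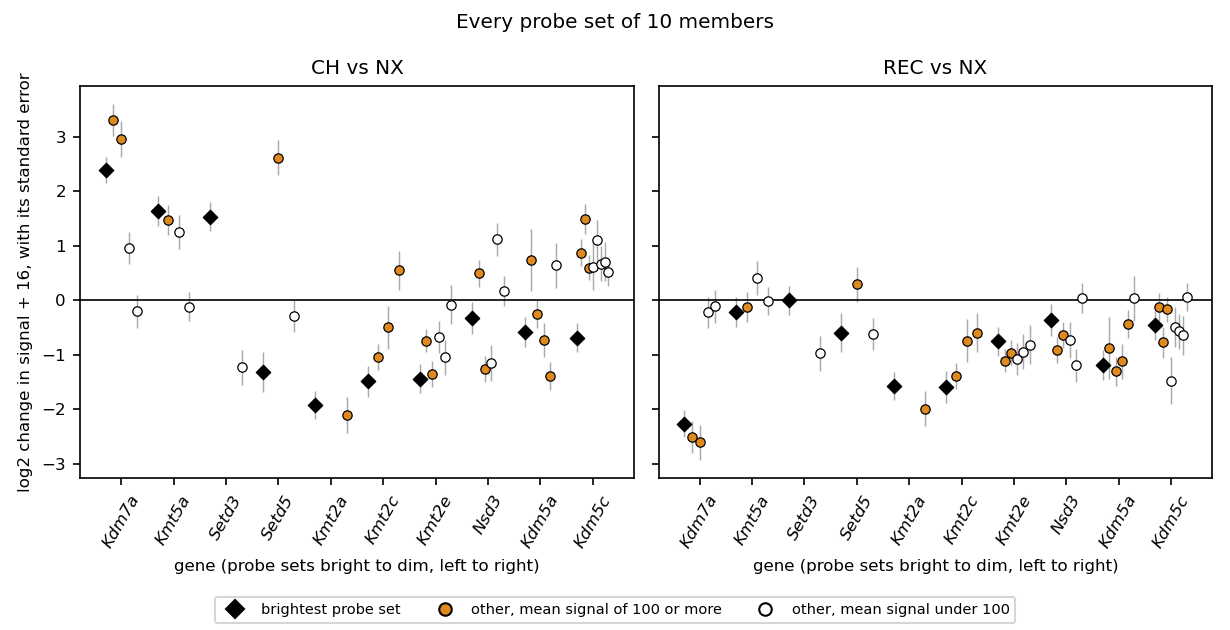
Each point is 1 probe set of 10 members chosen for this display, ordered from bright to dim within a gene, with its log2 change of signal + 16 and standard error. Black diamonds are the probe sets used for the gene; the probe sets of Kdm7a at 2.39, 2.96 and 3.31 stand high in CH and low in REC, and those of Setd3 and Setd5 fall on both sides of 0 in CH.

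Partners of these enzymes were counted in the same way from fixed lists, beside shares of 19.5% lower and 9.08% higher in CH and of 1.79% and 2.5% in REC over all genes. Of 11 COMPASS partners, 4 were called lower in CH (Men1 at -1.34, Cxxc1 at -1.14, Wdr82 at -2.04 and Ncoa6 at -1.42) and 0 in REC, with medians of -0.85 and 0.06. Of 9 partners of Polycomb repressive complex 2, the histone-binding subunit Rbbp4 was higher in CH (2.06, adjusted p = 1.53e-05), and Eed (-1.71), Jarid2 (-1.08) and Aebp2 (-1.64) were lower. Rbbp4 is also shared by other chromatin complexes. Of 9 LSD1 complex partners, Hdac2 (-1.79), Phf21a (-2.22) and Zmym2 (-1.15) were lower in CH. Of 8 H3K9 readers and partners, 5 were lower (the heterochromatin proteins Cbx1 at -1.62 and Cbx5 at -1.65, with Trim28, Atf7ip and Mphosph8), and Uhrf1, which guides maintenance DNA methylation in dividing cells, was higher (2.93, adjusted p = 5.76e-06). By limma 0 of the 37 genes of these 4 lists were called in REC, and at an unadjusted p under 0.05 there were 7 higher and 4 lower (11% and 7.04% of all genes).

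Among 20 further lysine methyltransferases and demethylases, 1 was higher and 5 lower in CH (Prdm2, Jmjd1c, Jmjd6, Phf2 and Riox1), where 9.08% and 19.5% of all genes were called, and the only call in REC was Phf8. Phf8 encodes a JmjC demethylase of the same subfamily as Kdm7a. It read 3121, 4303, 3381 and 3450 in CH, 402, 351, 318 and 326 in REC, and 993, 1194, 1091 and 1242 in NX. As for Kdm7a, the 3 groups were fully apart, with CH highest and REC lowest. Its change was 1.64 in CH (adjusted p = 7.13e-05), -1.65 in REC (adjusted p = 0.000902) and 3.29 between CH and REC (adjusted p = 5.8e-08). All 3 calls of Phf8 were lost under control scaling (0.03, adjusted p = 0.944, in CH, -0.84, adjusted p = 0.0947, in REC, and 0.87, under 2-fold, between CH and REC). Phf2, the other member of that subfamily, was at -1.95 in CH (adjusted p = 0.000824) and -0.20 in REC.

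Of 9 arginine methyltransferases, Carm1 was higher in CH (2.08, adjusted p = 3.51e-05) and Prmt1 (-1.31), Prmt2 (-2.29), Prmt3 (-1.49) and Prmt5 (-1.41) were lower. Among 11 enzymes of the methyl donor and 2-oxoglutarate pathways, Mat2b, a regulatory subunit of S-adenosylmethionine synthesis, was higher in CH (2.15, adjusted p = 1.59e-05), as were Idh3g (1.20) and Ogdh (1.03), and Ahcyl1 (-1.15), Idh2 (-1.97) and Idh3a (-1.31) were lower. By limma 0 of these 20 genes were called in REC, and 4 were higher and 0 lower at an unadjusted p under 0.05, where 11% and 7.04% of all genes were.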

How the data were processed

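Blood of 12 mice, 4 in each group, was measured on 1 array each, and arrays were grouped by their titles. Probe set intensities were deposited by the authors on a linear scale, each array scaled to the same mean after trimming 2% at both ends (149.9 to 150.0). This removes differences in the trimmed mean between arrays but not in the brightest signals. The 100 brightest probe sets held 19.9% to 22.1% of the signal in CH, 8.46% to 10.3% in REC and 10.6% to 13.8% in NX. The study stored raw intensities in Affymetrix's GeneChip Operating System and named GC-RMA in Partek for its analysis, a log2 scale that these linear signals are not on; which program summarised the deposited signals was not given in the sources used here. In the annotation, 9211 probe sets had no gene and 932 had several. Signals were taken as log2(signal + 16) and tested in R 4.3.3 by limma 3.58.1 (linear model with a mean per group, moderated variances, 9 residual degrees of freedom, Benjamini-Hochberg over 45101 probe sets), and the code was tested on simulated data. Calls needed an adjusted p under 0.05 and a change of 2-fold, and each gene was counted by its probe set with the highest mean log2 signal. Arrays have no counts, so their number limits the precision. Values on every array were given for up to 6 called members in each direction and comparison with the largest changes and no overlap, plus Kmt2a, Kdm7a, Kdm3a, Ezh1 and Ezh2 by rule, and Phf8, Kdm5d and members with wide spread were added after their values were seen. The members and lists were chosen with earlier results of these data known. Alternatives covered normalization, pseudocount, filter, array weights, prior, arrays in the fit, replicate block, probe set, threshold and leaving out each array. Summaries and plots used Python 3.11.15, pandas 2.3.3 and matplotlib 3.10.9. Sequences were RefSeq promoters of GRCm38.p6.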

Additional observations from a re-analysis of the deposited data

Results flagged for a closer look

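Of 138 sets of 4 arrays tested (46 genes in 3 groups), 7 held an array far from the other 3 by Dixon's criterion, where chance gives about 1 in 20, or 6.9. Ezh1 read 65.2 in CH replicate 1, against 153 to 173 in the other CH arrays, and Kdm6a read 317 in CH replicate 2, against 178 to 196. In NX, Kdm1b read 43.3 in replicate 1, against 146 to 171, and Kdm3a read 419.8 in replicate 4, against 577 to 603. In REC, Kdm4a read 156.8 in replicate 3, against 138 to 141, Kdm4b read 140.6 in replicate 3, against 90.0 to 96.7, and the dim Kdm4d read 1.97 in replicate 1, against 10.5 to 12.7. The flagged arrays belonged to 6 different mice.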

How the results depend on the processing

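Scaling on the hybridization controls moved the most: the median of all genes became -1.56 in CH against NX, 0.79 in REC against NX and -2.35 in CH against REC. Under it 0 members were higher and 39 lower in CH against NX (1.45% and 75.9% of all genes). In REC against NX 3 were higher and 1 lower (21.8% and 0.434%). In CH against REC 1 was higher and 42 lower (1.43% and 92.8%). The share of higher calls, 12.5%, 0% and 41.7% in the 3 comparisons, became 0%, 75% and 2.33%, and for CH against REC 54.5% under quantile normalization and 21.1% under median centring. The controls shift the change of every gene alike, by -1.61 in CH against NX, 0.81 in REC against NX and -2.42 in CH against REC. Among members called before or after this shift, signs turned in CH against NX for Kdm4a (-1.13), Kdm4d (-1.30), Kdm5b (-1.24), Setd3 (-0.073) and Setdb1 (-1.47), and in CH against REC for Kdm3b (-1.09), Kdm4a (-2.27), Kdm4d (-1.83), Kdm5a (-1.82), Kdm5b (-1.80), Kdm5d (-1.47), Kdm6a (-1.70), Kmt2c (-2.32), Kmt5a (-0.57), Nsd2 (-2.04), Nsd3 (-2.39), Setd3 (-0.88), Setdb1 (-1.25) and Suv39h2 (-1.94). Kdm3b (-0.87), Kdm5d (-0.81) and Suv39h2 (-0.85) also turned in CH against NX, called in neither. Quantile normalization left 14 members lower in CH against NX (16.1% of all genes). When the probe sets of a gene were averaged, 11 were lower in CH against NX (12.1% of all genes). In CH against REC 3 were higher and 4 lower (10.3% and 15.7%). Setd5 at 0.34 in CH against NX and Kdm5c at 1.17 and Nsd1 at 0.31 in CH against REC were reversed. The lower count in CH against REC was 15 with median centring (30.3% of all genes), 11 with array weights and 12 with no fold limit. Why these settings moved the counts was not tested.

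Leaving out each array in turn, members higher in CH against NX numbered 3 to 5 (5 without CH replicate 4) and lower 16 to 21, those higher in REC against NX 0 to 0 and lower 4 to 8, and those higher in CH against REC 4 to 6 and lower 6 to 12 (12 without CH replicate 3). All 3 higher calls in CH against NX, 14 of the 21 lower ones and 4 of the 6 lower ones in REC against NX held without any single array. With replicate number as a block, 3 were higher and 21 lower in CH against NX, 0 and 7 in REC against NX (Setd2 added, adjusted p = 0.0469), and 5 and 7 in CH against REC. The numbers did not pair the mice: correlations of same-numbered arrays ran between -0.20 and 0.44. NX replicate 1 correlated with CH replicates 1 (0.44) and 2 (0.31), and negatively with CH replicates 3 (-0.25) and 4 (-0.44). Median signals were highest on NX replicate 1 (57.1) and CH replicates 1 (59.9) and 2 (55.4). Whether these arrays share a factor was not tested. Over all members and alternatives, 3103 results kept their side of the threshold, 97 of them with a change of sign while uncalled (28 under control scaling, 17 with averaged probe sets and 33 with 1 array left out), 87 gained a call, 94 lost it, and 22 that were called in at least 1 setting reversed. With 4 mice a group and dim members such as Kdm4d and Suv39h2 below the median signal of all probe sets, small changes could not be resolved.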
